A study of Mus musculus with 15 samples.

Results

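Homologous recombination mends DNA breaks by copying an intact sister chromatid, and the same proteins protect and restart stalled replication forks. Broken ends are trimmed back to single-stranded tails, BRCA1 and BRCA2 help to prepare those tails for pairing with the template, and helicases and remodellers later take the joined molecules and the protein filaments on them apart. Because a sister chromatid is needed, cells use this pathway mainly during DNA replication and before division, and most adult microglia, the resident macrophages of the brain, are not dividing at any one time. The genes described here are 9 members of this pathway, Brca1, Bard1, Brca2, Rad51ap1, Rad54l, Fignl1, Exo1, Blm and Fancd2. They were taken by name from the 32372 genes of a single-cell RNA-seq count matrix, with earlier results of these data known. All 9 were present in the matrix and all 9 passed the filter on low counts.

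The matrix held 102043 cells from 15 male C57BL/6J mice aged 3.5 months, all carrying the hTfR KI allele, in which the apical domain of the transferrin receptor is the human one. A single 10 mg/kg injection had been given to each mouse, either of ATV:4D9, an antibody against the microglial receptor TREM2 built on an Fc that binds the human transferrin receptor for transport into the brain, or of ATV:RSV, the control antibody on the same Fc. The 5 groups of 3 mice were collected 1 day after ATV:RSV and 1, 7, 14 or 28 days after ATV:4D9. CD45 beads were used to enrich microglia from cortex and hippocampus, and 1 mouse of each group was processed in each of 3 batches. Days 7, 14 and 28 had no control mice of the same day, so time since dosing and antibody cannot be told apart there, and all comparisons with the control share the same 3 ATV:RSV mice. A further control animal named in the labels was not analysed here.

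Libraries held 32341960 to 70307384 UMIs (unique molecular identifiers, each standing for 1 captured transcript) from 5667 to 7596 cells per mouse. The ATV:4D9 day 1 cells were deeper, with medians of 8202 to 8996 UMIs per cell against 4694 to 6117 in the other 12 mice. Of all cells, at least 99.8% per mouse had 3 or more of the 10 microglial markers checked (among them P2ry12 and Tmem119), and the summed level of those 10 was 23925 to 26066 CPM (counts per 1000000 UMIs) at ATV:4D9 day 1 against 28460 to 32719 elsewhere. Cells with 3 or more of 7 border macrophage markers made up 0.843 to 1.23% of ATV:4D9 day 1 cells and 0.211 to 0.405% of the others, and the summed level of these 7 was 17.96 to 26.05 CPM against 11.50 to 20.59. The summed level of 5 monocyte markers was 13.84 to 17.99 CPM at ATV:4D9 day 1 against 3.61 to 11.61 in the other mice, with at most 0.0167% of cells per mouse having 3 or more of them. Median mitochondrial shares were 3.96 to 4.50% of UMIs at ATV:4D9 day 1, 3.11 to 3.38% at ATV:RSV day 1 and 3.13 to 4.04% in the later groups. Leaving out every cell with 3 or more markers of another cell type left the day 1 log2 fold changes of the 9 genes as large, with values given further on. The part of the mitochondrial share in the results was not tested. A barcode sequence occurring in another library was found for 2.53% of cells.

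The sequence before the transcription start is shown for 4 of the genes, because the 9 moved together by day and 3 of the 7 with an entry in the promoter table shared a short motif. The 250 bases upstream of the RefSeq start (build GRCm38.p6) were searched on both strands for TTCCCGC and TTGGCGC, cores of sites for E2F factors, which drive genes of DNA replication, for TTTGAA, the cell cycle homology region, and for CCAAT, which NF-Y binds. Capitals below mark TTCCCGC or CCAAT on either strand, and no 2 marked motifs overlapped.

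Fignl1 lies on the reverse strand of chromosome 11 and its window is chr11:11808963-11809212.
Fignl1: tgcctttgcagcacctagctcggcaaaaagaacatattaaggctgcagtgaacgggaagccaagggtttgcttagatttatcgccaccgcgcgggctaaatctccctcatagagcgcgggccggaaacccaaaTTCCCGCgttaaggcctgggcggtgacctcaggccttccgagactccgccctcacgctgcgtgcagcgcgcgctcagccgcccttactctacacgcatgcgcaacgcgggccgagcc

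Brca1 lies on the reverse strand of chromosome 11 and its window is chr11:101551956-101552205.
Brca1: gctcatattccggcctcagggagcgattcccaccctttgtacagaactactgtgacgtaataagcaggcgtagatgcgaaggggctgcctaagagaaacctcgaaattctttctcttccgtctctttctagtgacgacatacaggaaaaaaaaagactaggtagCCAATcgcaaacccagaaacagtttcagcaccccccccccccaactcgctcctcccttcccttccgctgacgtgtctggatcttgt

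Brca2 lies on the forward strand of chromosome 5 and its window is chr5:150522371-150522620.
Brca2: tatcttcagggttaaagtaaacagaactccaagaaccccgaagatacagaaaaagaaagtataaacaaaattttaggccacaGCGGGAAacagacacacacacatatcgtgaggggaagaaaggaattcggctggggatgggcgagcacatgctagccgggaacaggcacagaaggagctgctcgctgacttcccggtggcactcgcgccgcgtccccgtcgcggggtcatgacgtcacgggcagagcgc

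Bard1 lies on the reverse strand of chromosome 1 and its window is chr1:71102973-71103222.
Bard1: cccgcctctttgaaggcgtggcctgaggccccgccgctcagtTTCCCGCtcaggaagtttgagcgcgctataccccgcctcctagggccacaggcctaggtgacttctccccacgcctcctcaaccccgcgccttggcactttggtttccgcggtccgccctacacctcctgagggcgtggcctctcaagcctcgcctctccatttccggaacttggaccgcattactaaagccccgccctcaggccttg

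TTCCCGC occurred before Fignl1, Brca2 and Bard1, 3 of 7 genes with an entry, against 3.82% of the 32851 promoter windows of the table. The background counts windows, of which a gene can have several. The windows of these 3 genes were 61.2, 54.4 and 64.8% G or C, beside a median of 52.4% over all windows. The part of base composition in the matches was not tested. In Fignl1 it began 117 bases before the RefSeq start, in Brca2 168 bases and in Bard1 208 bases. The GENCODE M21 gene reaches to 71103146 for Bard1 and to 80535119 for Blm, both on the reverse strand. These ends lie inside their windows (chr1:71102973-71103222 and chr7:80534999-80535248), so part of each window is within the gene in that annotation. CCAAT occurred before Brca1, Rad51ap1, Rad54l and Blm, 4 of 7, against 33.8% of all windows, and TTTGAA before Bard1 alone, against 16% of all windows. TTGGCGC was in none of the 7 windows and in 1.97% of all. Such matches describe letters only, and Fancd2 and Exo1 are named without a sequence.

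At day 1 all 9 genes were higher in every ATV:4D9 mouse than in every ATV:RSV mouse, with log2 fold changes from 1.93 (Blm) to 6.10 (Fignl1). The comparison asks what the TREM2 antibody does to transcript levels 1 day after dosing, and it used limma-voom on UMIs summed per mouse with Benjamini-Hochberg adjustment over 14260 genes. All 9 were called higher at adjusted p under 0.05, where 34.7% of all genes tested were called higher and 34.6% lower, and for each of them the 2 sets of 3 mice did not overlap, as was so upward for 35.7% of all genes. The median log2 fold change of the 9 was 4.77, beside -0.05 over all genes, a description since the 9 were chosen with earlier results known. In rank of log2 fold change among the 14260 genes, Fignl1 stood 25th and Blm 691st from the highest. Sums over cells do not separate more cells with a transcript from more transcripts per cell. With so few UMIs of each gene per cell, the shares of cells given further on largely follow the mean level and do not separate them either.

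**Figure D1:**
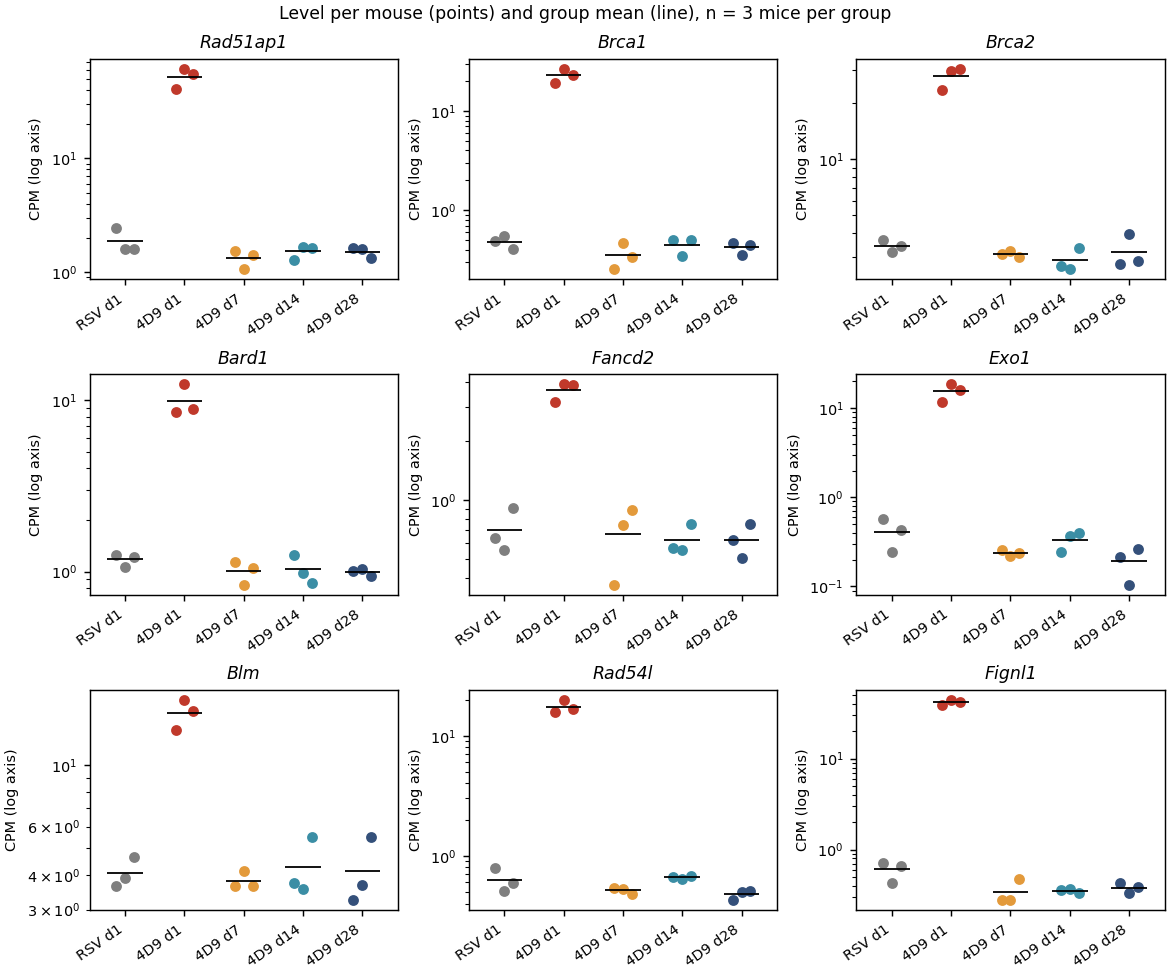
Level of each of the 9 genes in each mouse (points) and group mean (line), in CPM on a log axis whose range differs between panels, for ATV:RSV day 1 and ATV:4D9 days 1, 7, 14 and 28 with 3 mice each. In every panel the 3 ATV:4D9 day 1 mice stand above all 12 others, for example 39 to 44.3 against 0.716 or less for Fignl1.

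Among the genes of the BRCA complexes, Brca1 had the largest fold. BRCA1 forms a ubiquitin ligase with BARD1 and steers broken ends toward recombination. Brca1 (chr11:101488764-101551955 in GENCODE M21 on GRCm38, as for the other gene positions) stood at 0.491, 0.555 and 0.406 CPM in the 3 ATV:RSV mice and at 19.3, 26.4 and 23.1 in the 3 ATV:4D9 day 1 mice. The control values rest on 17 to 24 UMIs per mouse and the treated ones on 1078 to 1619. The log2 fold change was 5.53 ± 0.29 (SE, adjusted p = 1.29e-10).

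Bard1 (chr1:71027498-71103146), which encodes the partner without which BRCA1 is unstable, stood at 1.25, 1.06 and 1.22 CPM in controls and at 8.47, 12.3 and 8.81 at ATV:4D9 day 1. Its log2 fold change was 3.04 ± 0.22 (adjusted p = 4.24e-09). Brca2 (chr5:150522630-150570329), which acts with BRCA1 on the trimmed tails, went from 3.68, 3.16 and 3.44 CPM to 23.6, 29.7 and 30.5. Its log2 fold change was 3.01 ± 0.15 (adjusted p = 6.59e-11), close to that of Bard1, and neither 95% interval reached that of Brca1 (2.58 to 3.50 for Bard1, 2.69 to 3.33 for Brca2, 4.91 to 6.15 for Brca1). All 3 genes rose in the treated mice by more than their spread between mice.

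Of the genes whose products act in strand invasion, Fignl1 showed the largest change of the 9. FIGNL1 is an AAA ATPase of recombination. Fignl1 (chr11:11787431-11808962) stood at 0.716, 0.434 and 0.668 CPM in the ATV:RSV mice, from 18 to 35 UMIs each, and at 39, 44.3 and 42.1 at ATV:4D9 day 1, from 1969 to 2710 UMIs. The log2 fold change was 6.10 ± 0.19 (adjusted p = 5.25e-13).

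Rad51ap1 (chr6:126923050-126939587) encodes a protein that stimulates strand exchange, and it stood at 2.45, 1.59 and 1.60 CPM in controls and 40.5, 60.9 and 55.0 at ATV:4D9 day 1, a log2 fold change of 4.77 ± 0.25 (adjusted p = 1.15e-10). Rad54l (chr4:116094264-116123690), a DNA motor of strand invasion, stood at 0.797, 0.507 and 0.597 in controls and 15.9, 19.9 and 16.7 at ATV:4D9 day 1. Its log2 fold change was 4.77 ± 0.21 (adjusted p = 1.65e-11), the same to 2 decimals as that of Rad51ap1.

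The genes of end trimming and of unwinding gave a large and the smallest of these changes. Exo1 (chr1:175880581-175913489), a nuclease of long-range resection, stood at 0.572, 0.241 and 0.429 CPM in controls, from only 10 to 28 UMIs, and at 11.8, 18.5 and 16.1 at ATV:4D9 day 1. Its log2 fold change of 5.21 had the largest SE of the 9 (0.41, adjusted p = 1.28e-08). Blm (chr7:80454733-80535119), the helicase that dissolves joined molecules, was already at 3.64, 3.91 and 4.65 CPM in controls and reached 13.5, 17.3 and 15.7, a log2 fold change of 1.93 ± 0.17 (adjusted p = 5.73e-08).

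Fancd2, which marks stalled forks and crosslinks once it carries ubiquitin, was the gene with the fewest UMIs at ATV:4D9 day 1. Fancd2 (chr6:113531682-113597017) stood at 0.634, 0.555 and 0.907 CPM in controls and 3.16, 3.90 and 3.89 at ATV:4D9 day 1, from 182 to 239 UMIs per mouse. The log2 fold change was 2.39 ± 0.24 (adjusted p = 2.37e-07). Fancd2 overlaps Fancd2os on the other strand, Rad54l overlaps Lrrc41 on the other strand, and Brca2 overlaps Gm42529 on the other strand and Gm42531 on the same strand in the GENCODE M21 annotation. Whether reads of such neighbours entered the counts was not tested.

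Within each of the 3 batches, which held 1 mouse per group, all 9 genes were higher at ATV:4D9 day 1 than in the control, with log2 differences from 1.74 (Blm, batch 3) to 6.54 (Fignl1, batch 2). For all 9 the ATV:4D9 day 1 mouse of batch 1 had the lowest level of its group.

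At day 7 the 9 genes were back near the control. Each of the 9 was lower at ATV:4D9 day 7 than at ATV:4D9 day 1, from a log2 fold change of -2.02 for Blm to -6.85 for Fignl1, and all 9 were called in the same limma-voom fit, with adjusted p between 1.95e-12 and 3.87e-07, where 33.9% of all genes were called lower. For each of the 9 the day 7 mice lay under all day 1 mice, as for 35.2% of all genes. Against ATV:RSV day 1, 0 of the 9 passed at day 7 (3.98% of all genes), 0 at day 14 (0.4%) and 0 at day 28 (0%). At an unadjusted p under 0.05 the limma-voom fit gave 1 of 9 on each of these days, Fignl1 each time, beside 16.4, 5.4 and 4% of all genes. edgeR's quasi-likelihood test and DESeq2 also called 0 of 9 at days 7, 14 and 28. At an unadjusted p under 0.05, edgeR gave 2 of 9 at day 7 (Fignl1 and Rad51ap1) and DESeq2 gave 3 (Exo1, Fignl1 and Rad51ap1). Both tools gave Fignl1 alone at day 14, and 2 of 9 at day 28 (Exo1 and Fignl1). The share of all genes under that rule is not given here for these tools.

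**Figure D2:**
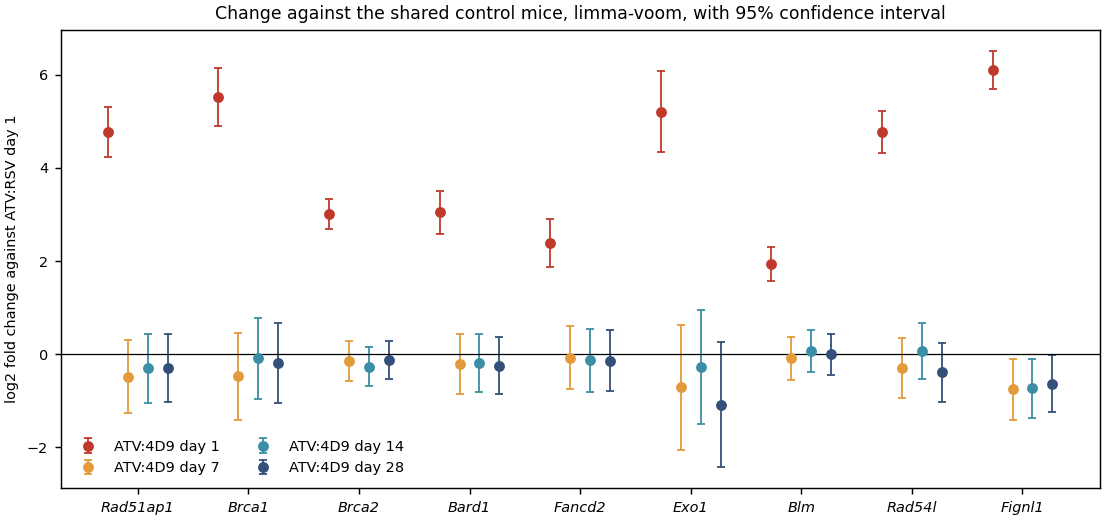
Log2 fold change of each of the 9 genes against the 3 ATV:RSV day 1 mice at ATV:4D9 days 1, 7, 14 and 28, from limma-voom, with 95% confidence intervals. The day 1 points lie between 1.93 and 6.10, and the later points between -1.08 and 0.07.

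The later values lay mostly a little under the control. At day 7 all 9 log2 fold changes against ATV:RSV were negative, with a median of -0.295 and a range from -0.76 (Fignl1) to -0.07 (Fancd2). At day 14 they ran from -0.74 to 0.07 and at day 28 from -1.08 (Exo1) to 0.00 (Blm). Because all 3 days are set against the same 3 control mice, a high draw in those mice would lower every later value alike. In the cell cycle classes described further on, the ATV:RSV mice had 33 G2M class cells, 20 of them in replicate 1. Days 7, 14 and 28 had 6, 3 and 9. The 21 G2 and mitosis genes had median log2 fold changes of -1.10, -1.26 and -1.28 on these days, and the 24 replication genes -0.10, -0.10 and -0.17, with 0 called. The part of such cells in the later values was not tested. The intervals are wide for the rare genes: for Exo1 at day 28 the 95% interval ran from -2.43 to 0.26, and for Brca1 at day 7 from -1.41 to 0.46.

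Fignl1 was the gene with an unadjusted p under 0.05 on each of these days. Its 3 mice stood at 0.283, 0.280 and 0.476 CPM at day 7, at 0.364, 0.371 and 0.330 at day 14, and at 0.428, 0.336 and 0.387 at day 28, against 0.716, 0.434 and 0.668 in the ATV:RSV mice. Its mice of days 14 and 28 lay under all control mice and those of day 7 overlapped them. Rad51ap1 at day 7 and Bard1 at day 28 also lay under all control mice, so that 1, 1 and 2 of the 9 did so at days 7, 14 and 28, where 10.2, 5.16 and 4.34% of all genes did. The log2 fold changes were -0.76 ± 0.31 (unadjusted p = 0.0258, adjusted p = 0.22), -0.74 ± 0.295 (unadjusted p = 0.0246, adjusted p = 0.752) and -0.63 ± 0.285 (unadjusted p = 0.0418, adjusted p = 1), so none was called. Behind each value are 9 to 35 UMIs. Blm, by contrast, stood at 3.65, 4.13 and 3.65 at day 7, with a 95% interval of its log2 fold change from -0.56 to 0.38.

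The order of the 5 groups was therefore the same for all 9 in its first place only. A moderated F test over the 5 group means called all 9, with adjusted p between 3.62e-13 (Fignl1) and 2.58e-07 (Fancd2), where 66.5% of all genes were called. Below ATV:4D9 day 1, neighbouring groups were not separated by any test run here.

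In single cells, the share of cells with a UMI of a gene depends on depth, so each cell was thinned at random to 3385 UMIs and the 10204 shallower cells were left out, 3.93 to 5.79% of cells per ATV:4D9 day 1 mouse and 6.75 to 17.8% of the others. After thinning, 32.9, 40.2 and 37.0% of cells had a UMI of at least 1 of the 9 genes in the 3 ATV:4D9 day 1 mice, and 4.37, 3.89 and 4.49% in the 3 ATV:RSV mice. Unthinned, the shares were 53.9, 60.3 and 55.9% and 7.44, 6.28 and 7.75%. The 9 mice of days 7, 14 and 28 gave 3.47 to 4.23% after thinning. These shares are a description, since 3 mice against 3 cannot give an exact p under 0.10, and the exact 95% binomial intervals, which cover counting error only, ran from 31.7 to 34.0%, 39 to 41.3% and 35.7 to 38.2% in the ATV:4D9 day 1 mice.

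The genes differed in the share of cells in which a UMI was found. Thinned, Rad51ap1 was found in 12.8% ± 2.55 of ATV:4D9 day 1 cells (SD, n = 3) against 0.59% ± 0.082 of ATV:RSV cells, Fignl1 in 11.5% ± 0.697 against 0.174% ± 0.0784, and Brca2 in 7.89% ± 0.852 against 1.23% ± 0.0754. Brca1 was found in 5.69% ± 0.966 against 0.181% ± 0.03, Rad54l in 4.86% ± 0.598 against 0.188% ± 0.103, Blm in 4.39% ± 0.537 against 1.29% ± 0.186, and Exo1 in 4.34% ± 1.06 against 0.171% ± 0.0721. Bard1 was in 2.68% ± 0.664 against 0.455% ± 0.0568, and Fancd2 in 0.956% ± 0.114 against 0.209% ± 0.0508. The control shares were measured the same way, and for none of the 9 did an ATV:4D9 day 1 mouse come down to them. They are not a background of the ATV:4D9 day 1 libraries, whose free transcript was not measured. Over the 9 genes together, a cell with any of them held a mean of 2.90, 3.23 and 2.96 of their unthinned UMIs in the ATV:4D9 day 1 mice, against 1.33, 1.17 and 1.16 in the ATV:RSV mice, whose cells were shallower.

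Several of the 9 were often found in the same cell at day 1. After thinning, 3.28, 5.38 and 3.63% of cells in the 3 ATV:4D9 day 1 mice had UMIs of 3 or more of the 9 genes, up to 6 in 1 cell, while in the other 12 mice 0 to 5 cells per mouse did. All 36 pairs of genes were found together more often than the product of their shares in each of the 3 mice, with a median ratio of 2.02. Brca1 and Bard1 were found together 2.90 to 4.16 times as often as that product, in 23 to 46 cells per mouse. Some other pairs had ratios as high, such as Bard1 and Blm (2.91 to 3.35) and Fancd2 and Rad54l (3.55 to 3.66, in 9 to 15 cells per mouse). Among the S class cells described next the median ratio over pairs was 1.54, and 33 of 36 pairs stayed above 1 in all 3 mice. In this class the ratio for Brca1 and Bard1 was 1.99 to 2.52, for Bard1 and Blm 2.15 to 2.60 and for Fancd2 and Rad54l 2.65 to 3.20. The points share a cell's library and stage of the cycle, so no test was made.

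Cells were sorted into 3 ranges of cell cycle signal with lists that hold none of the 9 genes. An S class cell had at least 4 thinned UMIs of 24 replication genes (such as Mcm5 and Pcna) and more of these than of 21 G2 and mitosis genes, a G2M class cell at least 4 of the latter and no fewer than of the former, and a low class cell under 4 of both. At ATV:4D9 day 1 the S class held 55.0, 63.7 and 60.0% of cells and the G2M class 1.23, 1.99 and 1.73%, against 1.51, 1.15 and 1.15% and 0.312, 0.0895 and 0.14% in the ATV:RSV mice. These are ranges and not cell types, since 19.8% of ATV:4D9 day 1 cells had 3 or 4 UMIs of the larger list, next to the threshold.

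In all 3 ATV:4D9 day 1 mice each of the 9 genes was lowest in the low class, higher in the S class and highest in the G2M class. For Rad51ap1 the levels were 11.8 ± 1.99, 63.0 ± 9.19 and 154 ± 17.7 CPM (SD, n = 3, scaled to all UMIs of the class), and for Brca1 3.32 ± 0.173, 28.4 ± 3.17 and 82.9 ± 13.4. Since the S class was so much larger, it held 74.0 to 88.2% of the UMIs of each gene per mouse, and the G2M class 2.39 to 16.8%. The step between classes differed by gene. From S to G2M, Fancd2 went up by 4.74 to 6.26 times and Bard1 by 2.75 to 4.04 times, while Fignl1 went up by 1.16 to 1.80 times and Exo1 by 1.58 to 1.85 times. From low to S, Brca1 went up by 7.51 to 9.36 times and Blm by 2.57 to 3.28 times. The 321 G2M class cells give 22 to 33 UMIs per mouse for Fancd2.

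**Figure D3:**
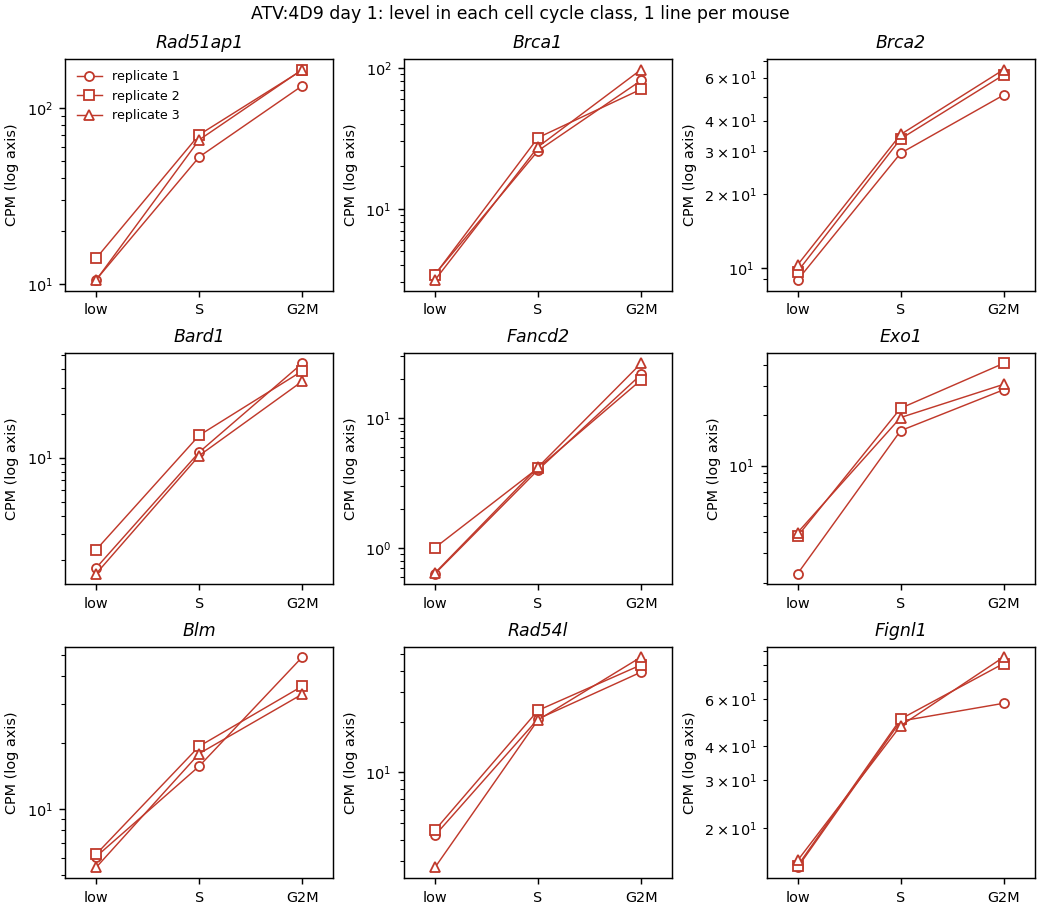
Level of each gene in CPM (log axis, range set per panel) in the low, S and G2M classes of ATV:4D9 day 1 cells, 1 line for each of the 3 mice. All lines rise from low to S to G2M, steeply at the second step for Fancd2 and less so for Fignl1.

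A few cells of the other groups also passed for G2M, and some of the 9 genes were found in them. Summed over the 3 ATV:RSV mice, the 33 G2M class cells had 41 UMIs of Rad51ap1, or 107 CPM, beside 156 in the 321 G2M class cells of ATV:4D9 day 1. Fignl1 was at 41.8 beside 76.3 and Brca1 at 39.2 beside 81.2. Of the 33 ATV:RSV cells, 20 came from replicate 1, 5 from replicate 2 and 8 from replicate 3, so these pooled values rest mainly on 1 mouse. In the S class, the 227 cells of ATV:RSV had Rad51ap1 at 14.6 CPM against 63.0, Brca1 at 3.17 against 28.6, and Fignl1 at 6.97 against 49.4. On day 7 the 148 S class cells had 2 UMIs of Rad51ap1 and 0 of Brca1, where 3 UMIs would be 3.00 CPM. The S classes of the groups were not alike in replication signal, since with a threshold of 8 UMIs the class held 12 cells of ATV:RSV, 1 of day 7 and 5487 of ATV:4D9 day 1. With so few cells these are values without a test.

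When cells with a UMI of the division genes Mki67 or Top2a were left out of every mouse, 8 of the 9 genes were called higher at day 1 in the limma-voom fit, in which 33.8% of all genes were called higher. Fignl1 kept a log2 fold change of 5.99 (adjusted p = 1.31e-13), Brca1 of 4.87 (8.3e-10), Exo1 of 4.50 (1.19e-08), Rad51ap1 of 4.19 (1.54e-11) and Rad54l of 4.10 (2.06e-11). Fancd2 fell to 0.64 and was no longer called (adjusted p = 0.0517). Without those cells all 24 replication genes were still called higher, at a median log2 fold change of 4.39, beside 4.67 with all cells. Of 18 G2 and mitosis genes tested there, 14 were called higher and 1 lower. Replication signal thus remained in the cells kept. With only cells of the low class, Fignl1 stood at 5.24, Brca1 at 3.47, Exo1 at 3.45, Rad51ap1 at 3.22 and Rad54l at 3.13, all called in a fit that called 31.9% of all genes higher, and Fancd2 at 0.43 (adjusted p = 0.333). Bard1 was cut to 0.99 (adjusted p = 0.00027) and Blm to 0.80 (adjusted p = 0.00165). Cells of the low class still differed in replication genes between the groups, with all 24 of that list called higher in them at a median log2 fold change of 3.38. Whether Fancd2 differs from the other 8 in this respect was not tested.

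**Figure D4:**
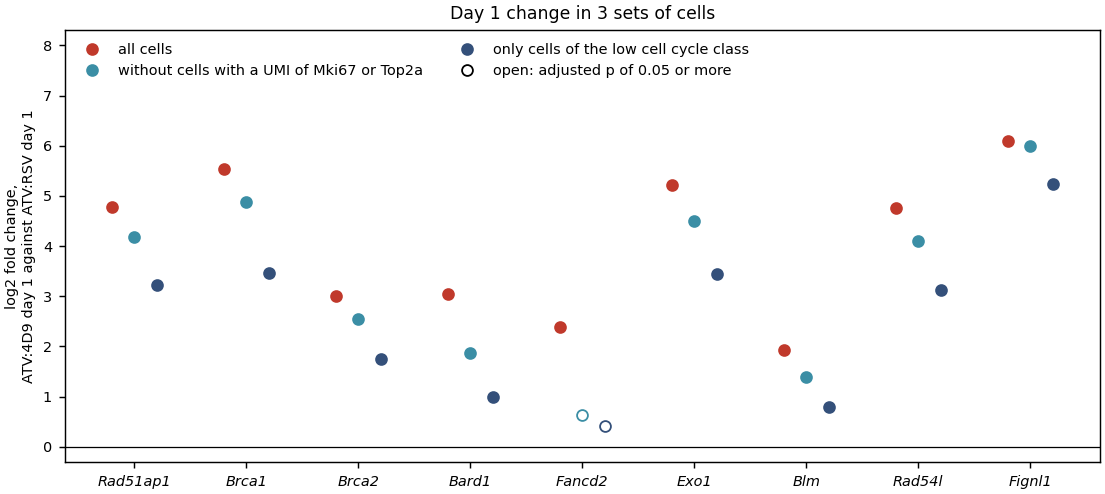
Log2 fold change of each gene at ATV:4D9 day 1 against ATV:RSV day 1 with all cells, without cells having a UMI of Mki67 or Top2a, and with only low class cells (filled points, adjusted p under 0.05; open points, 0.05 or more). All 9 shrink in that order, Fignl1 least (6.10, 5.99 and 5.24), and Fancd2 is the one with open points (0.64 and 0.43).

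In ATV:4D9 day 1 cells, the share with a UMI of any of the 9 climbed with the number of thinned UMIs of the 24 replication genes. It was 8.39 to 9.54% in the cells with 0 such UMIs, 15.6 to 16.7% with 1 to 3, 34.2 to 37.0% with 4 to 7, 60.8 to 65.7% with 8 to 15 and 83.2 to 86.6% with 16 or more. Fignl1 reached 10.7 to 13.4% already at 4 to 7, and 23.9 to 30.0% at 16 or more. Brca1 was at 3.29 to 4.23% at 4 to 7 and at 24.5 to 26.9% at 16 or more. The cells with 0 such UMIs were above the 3.89 to 4.49% found over all cells of the control mice. The ATV:4D9 day 1 libraries held 9906 to 14277 UMIs of the 9, against 498 to 696 in the control libraries. Free transcript was not measured, so its part in this difference was not tested.

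The authors' deposited clustering gives the same cells in 3 clusters, numbered 0, 1 and 2. Cluster 2 took 6212, 6597 and 5607 cells of the 3 ATV:4D9 day 1 mice and 74 to 245 cells of each other mouse. It held 96.7 to 99.9% of the ATV:4D9 day 1 UMIs of each of the 9 genes. Of all UMIs of these 3 mice it held 65585087 of 70307384, 64441360 of 67801858 and 51663270 of 53244126. Most UMIs of all genes together thus lay there too. The clusters were made from these cells and genes, so the levels are a description. In the few ATV:4D9 day 1 cells left in the other clusters, Fignl1 stood at 3.15 to 5.03 CPM in cluster 0 (21 UMIs in all) and 5.12 to 7.19 in cluster 1 (30 UMIs), against 0.466 to 0.585 and 0.192 to 0.534 in the same clusters of ATV:RSV mice. Rad51ap1 stood at 3.15 to 7.04 and 7.19 to 10.2, against 1.29 to 1.36 and 1.75 to 2.11. Not all 9 lay above the control there. In cluster 0 the ATV:4D9 day 1 mice overlapped the ATV:RSV mice for Blm (2.01 to 5.86 against 3.69 to 4.29 CPM), Bard1 (0 to 1.46 against 1.04 to 1.24) and Fancd2 (0.451 to 1.01 against 0.502 to 0.741). In cluster 1 they overlapped for Brca1 (0 to 2.40 against 0.281 to 0.768), Exo1 (0 to 3.05 against 0.534 to 0.631) and Fancd2 (0 to 0.763 against 0.421 to 1.30). These ranges rest on as few as 0 to 3 UMIs per mouse for Bard1 and on 3 and 1 UMIs in all for Fancd2. The part of free transcript in the levels of clusters 0 and 1 was not tested.

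The cells carrying the genes were checked against cell type markers. Of the 7352 ATV:4D9 day 1 cells with 2 or more unthinned UMIs of the 9, 99.97% had 3 or more microglial markers, 1.56% had 3 or more markers of another cell type, and 51.6% had a UMI of Mki67 or Top2a, against 99.8, 1.06 and 5.99% of the 8844 cells with none of the 9. They were deeper, with a median of 10691 UMIs against 7011. Without the cells having 3 or more markers of another type the day 1 log2 fold changes were as large, from 1.94 (Blm) to 6.27 (Fignl1). In the ATV:RSV mice 187 cells had 2 or more UMIs of the 9, of which 98.4% had 3 or more microglial markers and 4.28% had 3 or more markers of another type, against 99.9 and 0.615% of the 18849 cells with none of the 9. The cells with 2 or more were deeper here too, with a median of 7439 UMIs against 5260. The part of depth in these shares was not tested.

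The rest of the pathway was read from lists of further repair genes, by the same day 1 fit. Of 43 other recombination genes 34 were called higher, 3 lower and 6 were not called, with a median log2 fold change of 0.885. The shares over all genes were 34.7% higher and 34.6% lower. With total UMIs alone as the scale, which moved the median of all genes to -0.285 and their calls from 4942 higher and 4930 lower to 3690 and 6959, 31 of the 43 were higher and 9 lower. Rmi2, of the complex that works with BLM, rose by 6.55 ± 0.40 (adjusted p = 7.21e-10) and Rad54b, a paralogue of Rad54l, by 5.50 ± 0.54 (adjusted p = 1.89e-07), while Top3a, the topoisomerase of the BLM complex, fell by 0.48 on the log2 scale (adjusted p = 0.000656) and Rad51d fell by 0.37 (adjusted p = 0.000299). Palb2, the bridge between BRCA1 and BRCA2, rose by 2.05 ± 0.16 (adjusted p = 1.15e-08). The list also holds Polq, a polymerase of an end joining pathway, at 4.34, named here after its value was seen.

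Of all genes tested, 34.7% were called higher and 34.6% lower. Of 16 Fanconi genes 11 were called higher and 4 lower, with a median of 0.70. Fanca rose by 5.70, Fanci, the partner of FANCD2, by 5.20 and Ube2t, which attaches its ubiquitin, by 4.01 (adjusted p from 5.6e-11 to 5.03e-07), while the nuclease gene Fan1 fell by 0.89 and Wdr48, a cofactor of the enzyme that removes the ubiquitin, by 0.42. Of 18 fork and checkpoint genes tested 13 were called higher and 1 lower, with a median of 1.61: Chek1, a checkpoint kinase, rose by 6.81 ± 0.47 (adjusted p = 2.99e-09), Timeless by 6.51 ± 0.28 and Wdhd1 by 4.35 ± 0.17, and the fork remodeller Hltf fell by 0.49. With total UMIs alone as the scale, 8 Fanconi genes were higher and 5 lower, and 11 fork and checkpoint genes were higher and 4 lower. That scale called 3690 of all 14260 genes higher and 6959 lower.

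End joining is the route that needs no sister chromatid. Of its 16 genes 6 were called higher and 5 lower, with a median of -0.07, beside 34.7% of all genes called higher and 34.6% lower, so these counts lie near the background. Xrcc6 rose by 1.31, Mad2l2 by 1.21 and Rif1 by 1.02, Dclre1c, the Artemis nuclease, fell by 1.05 and Paxx by 0.90, and Trp53bp1, which opposes end trimming, stood at -0.15 ± 0.09 (adjusted p = 0.159). With total UMIs alone as the scale, 6 were higher and 9 lower. All 9 of the genes above kept their calls and direction under that scale.

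Damage signalling and mismatch repair were 2 further lists, read beside the same 34.7% of all genes called higher and 34.6% lower. Of 9 damage signalling genes 7 were called higher and 0 lower, with a median of 0.73, Chek2 at 1.07, Mdc1 at 1.00, H2afx at 0.98 and Atm, the kinase that senses breaks, at 0.72 ± 0.08 (adjusted p = 1.22e-06). With total UMIs alone as the scale, 6 were higher and 2 lower. Of 7 mismatch repair genes 6 were higher and 1 lower, Msh6 at 1.94, Pms2 at 0.81 and Mlh3 at -0.31. Of 11 p53 target genes tested 4 were higher and 3 lower, near the 34.7 and 34.6% of all genes, with a median of 0.08. With total UMIs alone as the scale 4 were higher and 5 lower with a median of -0.161, and with thinned cells the median was -0.015. Cdkn1a, the cell cycle inhibitor p21, rose by 2.3 ± 0.17 (adjusted p = 8.37e-09), from 49.7 ± 13.7 to 241 ± 31.8 CPM, Phlda3 by 2.13 and Aen by 1.00, while Trp53inp1 fell by 1.87 and Gadd45a by 1.31. With only cells of the low class, 4397 of 13775 genes were called higher (31.9%) and 4272 lower. In that fit mismatch repair went to 2 higher of 7 and 0 lower with a median of 0.18, near the share of all genes called higher. Damage signalling went to 6 and 2 with 0.27, and fork and checkpoint genes to 11 and 1 with 0.65. Fanconi genes went to 7 and 4 with 0.32, and other recombination genes to 28 and 4 with 0.52. End joining genes were at 5 and 4 with -0.07, and p53 targets at 4 and 2 with 0.16. With all cells, the 24 replication genes and the 21 G2 and mitosis genes used for the classes were all called higher, with medians of 4.67 and 3.50.

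**Figure D5:**
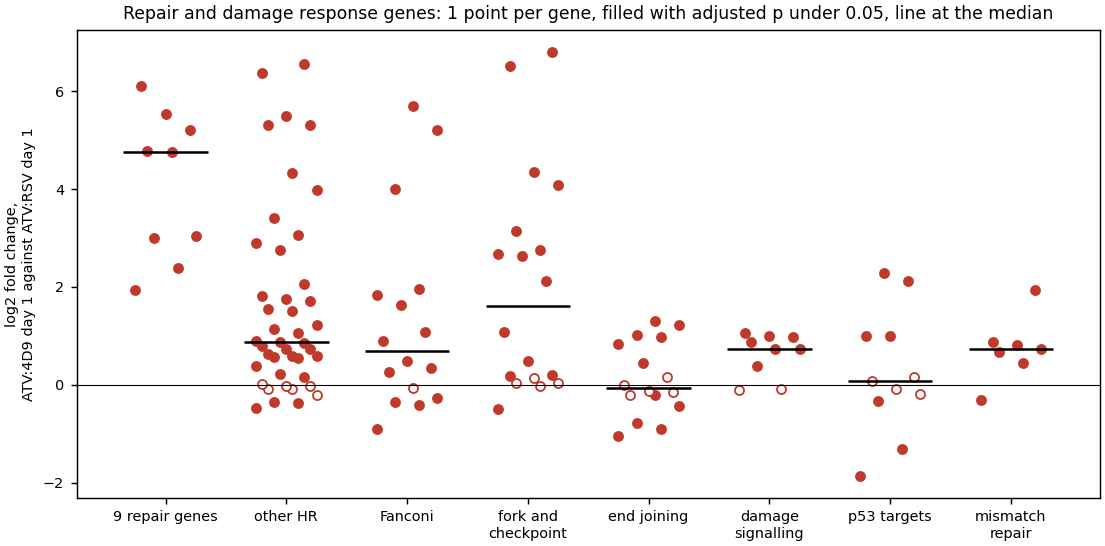
Log2 fold change at ATV:4D9 day 1 against ATV:RSV day 1 of the 9 genes and of 7 other lists of repair and damage response genes, 1 point per gene (filled, adjusted p under 0.05; open, 0.05 or more), with a line at each median. The 9 sit between 1.93 and 6.10 with a median of 4.77, other recombination genes between -0.48 and 6.55, and end joining genes between -1.05 and 1.31.

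Of the 120 tested genes of the 7 other repair and damage response lists, 3 were called against ATV:RSV at day 7, or 2.5%, beside 3.98% of all genes. At day 7 Dna2, a nuclease of end trimming, was higher by 1.32 ± 0.22 (adjusted p = 0.00145), Bbc3, an apoptosis gene, by 0.56 ± 0.08 (adjusted p = 0.000767) and Cdkn1a by 0.78 ± 0.18 (adjusted p = 0.0202), and none of the 120 was called at days 14 or 28, beside 0.4 and 0% of all genes. From day 1 to day 7 within ATV:4D9, 33 of the 43 other recombination genes were called lower and 4 higher, beside 33.9% of all genes lower and 33% higher, with Rpa2 at -2.76 and Rpa1 at -1.87, parts of the protein that coats single strands. Of the fork and checkpoint genes 14 of 18 were called lower and 1, Hltf, higher against the same background, with Topbp1 at -2.81 and Timeless at -6.79.

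Among the genes most like the 9 over the 15 mice were Dtymk, Cenpw, Pcna and Psma7, with Pearson r between 0.9967 and 0.9971 to the mean standardised log2 level of the 9. The 15 mice fall into ATV:4D9 day 1 and the rest, so such an r mostly repeats that split. After subtracting group means the closest were Retnlg (r = 0.917), Cenpw, Radx, Ccsap and 4921524J17Rik, picked as the highest over all genes tested, so a high r is no finding. Retnlg is one of 5 neutrophil markers, whose summed level was 157 CPM in ATV:4D9 day 7 replicate 3 and 0.892 to 10.0 in the other mice; the part of that mouse in the r was not tested. In that measure each of the 9 had an r with the mean of its other members between 0.131 (Brca1) and 0.622 (Rad54l).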

How the data were processed

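Single-cell RNA-seq (10x 3′) of CD45-enriched microglia was analysed from 15 mice. The authors deposited a filtered matrix of UMI counts per gene and cell, with each cell's mouse, cluster and percent of mitochondrial UMIs as the authors computed it. The submitters' processing notes name Cell Ranger 4.0.0 and mm10, while the methods name later versions, of which the newest differs by default in counting intronic reads. The paper's reporting summary gives that newest version for the study of wild-type mice. Which version made the deposited matrix was not checked. Cell filters and doublet removal are not given in the sources used here, and no doublet caller was run. Clusters are the authors' (Seurat, after integration).

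Sums of counts per mouse entered limma-voom, run in R 4.3.3 with limma 3.58.1 and edgeR 4.0.16, with TMM scaling, filterByExpr (minimum count 10, minimum total 15), group means over 15 mice, Benjamini-Hochberg adjustment over 14260 genes and a threshold of 0.05. Levels per mouse are CPM after TMM, and those of classes and clusters are plain CPM. edgeR and DESeq2 (1.42.0), other scalings, cell sets and left-out mice were alternatives, and the scripts were tested on simulated data. The labels give each batch 1 mouse of every group, so batch pairs the mice. The mean correlation of mice of different groups, after removal of group means, was 0.0539 in the same batch (30 pairs) and -0.0267 otherwise (60 pairs). The genes and the lists were chosen with earlier results of these data known. Other genes named are, per list, the 3 highest and 2 lowest called at day 1, with at least 10 UMIs per mouse in the higher group, at later days up to 3 called in each direction by adjusted p, the 5 most similar genes by each measure, and Palb2, Trp53bp1, Atm and Cdkn1a; a few genes that this rule names are not reported here. Libraries held 32341960 to 70307384 UMIs, so a level resting on few UMIs is imprecise.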

Additional observations from a re-analysis of the deposited data

Results flagged for a closer look

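Among the ATV:4D9 mice, the level of all 9 genes was lower on day 7 than on day 1 in limma-voom. No control mice of day 7 were analysed here, so the effect of time and that of the antibody cannot be told apart. The log2 fold change was -6.854 for Fignl1, -6.009 for Brca1, -5.92 for Exo1, -5.255 for Rad51ap1 and -5.064 for Rad54l. It was -3.26 for Bard1, -3.162 for Brca2, -2.457 for Fancd2 and -2.021 for Blm. All 9 were called lower, beside 33.9% of all genes, with adjusted p from 1.95e-12 to 3.87e-07, and for each gene the 3 mice of day 7 lay under the 3 of day 1, beside 35.2% of all genes.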

How the results depend on the processing

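With all cells, the 9 genes kept their calls and direction at day 1, and from day 1 to day 7, under every scaling, filter, tool and left-out mouse tried. The exception came with cells left out: Fancd2 was not called without Mki67 or Top2a cells (0.644 at day 1, -0.655 from day 1 to day 7) or in the low class (0.426 and -0.496). The cause was not tested.

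The count of all genes called at day 7, 568, became 1199 with library size alone, 871 with DESeq2 and 1014 with the replicate block, and ran from 331 (without ATV:RSV replicate 2) to 489 with 1 mouse left out. At day 14, 57 became 19, 132 and 122, and 0 with only the 6 mice compared, and ran from 0 (without ATV:4D9 day 14 replicate 1) to 52. At day 28, 0 became 14 with DESeq2 and 2 with the replicate block. The paired fit changed no call of the 9.

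Uncalled later values of the 9 changed sign. At day 7, Blm (0.018) and Rad54l (0.101) did so with thinned cells and Fancd2 (0.105) without the deepest 5% of cells. At day 14, Brca1 became 0.341 without Mki67 or Top2a cells, 0.203 in the low class and 0.314 without the deepest cells, and Rad51ap1 became 0.033 in the low class. At day 28, Blm became 0.027 with edgeR, 0.026 with DESeq2, 0.011 with the block, 0.002 without Mki67 or Top2a cells, 0.008 in the low class, 0.025 without the deepest cells and 0.148 with thinned cells. Brca1 became 0.191 and, in the low class, 0.039, Rad51ap1 0.041 in the low class, Fancd2 0.045 without the deepest cells and Rad54l 0.039 with thinned cells. With 1 mouse left out, day 7 ran from -0.173 to 0.008 for Blm and -0.381 to 0.279 for Fancd2. Day 14 ran from -0.135 to 0.163 for Blm, -0.197 to 0.072 for Brca1, -0.602 to 0.009 for Exo1, -0.274 to 0.056 for Fancd2 and -0.068 to 0.263 for Rad54l. Day 28 ran from -0.22 to 0.163 for Blm and -0.277 to 0.053 for Fancd2.

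The share of cells with any of the 9, 36.7% at ATV:4D9 day 1 and 4.25% in ATV:RSV, was 32.5 and 3.65% when thinned to 2820 UMIs, 43.0 and 4.95% at 4383 UMIs, and 56.7 and 7.16% unthinned. The summed CPM of the 9 with a class threshold of 4 UMIs, 55.1 (low), 248 (S) and 548 (G2M), became 34.7, 204 and 501 with 2 UMIs, and 98.8 (low) and 360 (S) with 8. Control levels of the rarer genes rest on 10 to 39 UMIs per mouse, so changes at later days smaller than their intervals were not detectable at this depth.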
